A study of Homo sapiens with 12 samples.

Results

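The mRNAs of the nuclear-encoded subunits of the respiratory chain and ATP synthase are described here as they stand in cultured human embryonic kidney cells. The members were chosen by name: every gene symbol in the deposited tables that starts as a subunit of complex I (NDUFA, NDUFB, NDUFC, NDUFS or NDUFV with a number), complex II (SDHA to SDHD), complex III (UQCR), complex IV (COX4 to COX8) or complex V (ATP5). After 3 antisense symbols were left out, 85 of the 23292 listed symbols remained, with 39 in complex I, 4 in complex II, 9 in complex III, 14 in complex IV and 19 in complex V. The name rule also takes in 2 readthrough symbols, NDUFC2-KCTD14 and ATP5J2-PTCD1. It takes in 3 genes that are counted here as no subunits of a mature complex, ATP5S, ATP5SL and COX7A2L. NDUFA4, now counted as a subunit of complex IV, is kept in complex I by its name.

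The cells, named HEK293 in some labels and HEK293T in others, are an immortalized kidney-derived line. They were treated for 6 h with vehicle (DMSO) or with 10 µM of AA263, AA263yne or AA263-5, compounds studied as activators of the ATF6 arm of the unfolded protein response, with 3 samples in each of the 4 groups and 12 samples in all. Every level given here is the authors' mean over all 12 samples, vehicle and treated together, so it has no SD or n, and no difference between the groups is described. The sequencing depth of each sample is unknown from these values, and whether a difference between genes exceeds the spread between samples cannot be said.

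The respiratory chain passes electrons from NADH (complex I) and succinate (complex II) through ubiquinone and complex III to complex IV, where oxygen is reduced. Complexes I, III and IV pump protons across the inner mitochondrial membrane, and complex V uses their return to make ATP. Complexes I, III, IV and V are built from subunits of both genomes, since mitochondrial DNA encodes a small hydrophobic core and the nucleus encodes the rest. Complex II is nuclear-encoded throughout.

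The cells carried the intermediate filament mRNAs that mark this line. VIM (vimentin) had a mean normalized value of 18797, NEFM and NEFL (neurofilaments) 3786 and 2225, INA (internexin) 704, and KRT18 and KRT8 (keratins) 2230 and 1488. PAX2, a kidney transcription factor, was low at 27.7, under the median of 99.7 over all listed symbols. Markers of blood, liver and muscle were near 0, at 0.544 for PTPRC, 0.488 for CD3E, 1.30 for ALB and 1.92 for CKM. HBB, INS and MYH7 were not among the listed symbols, so they have no value here.

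4 motifs long associated with these genes were searched for in their promoters, and some of the stretches that hold the motifs of nuclear factors are shown here so that the letters counted further on can be seen in place. Each is 60 bases long, lies upstream of a RefSeq transcription start in GRCh38.p14 and reads 5′ to 3′ on the gene's strand, with the motif in capitals. The lines marked NRF1 hold CGCATGCG, the core of the site of nuclear respiratory factor 1 (NRF1), and those marked ETS hold CCGGAAGT or its reverse complement, the core of the site of GABPA and other ETS factors. SDHD, a membrane anchor of complex II, stands in both sets.
NDUFS7, NRF1, chr19:1383807-1383866 (plus strand): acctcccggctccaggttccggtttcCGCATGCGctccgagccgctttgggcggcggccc
NDUFB4, NRF1, chr3:120596152-120596211 (plus strand): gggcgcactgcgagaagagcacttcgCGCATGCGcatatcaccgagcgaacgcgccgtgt
SDHD, NRF1, chr11:112086738-112086797 (plus strand): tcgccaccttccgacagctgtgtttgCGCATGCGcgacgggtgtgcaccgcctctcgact
COX6A1, NRF1, chr12:120437868-120437927 (plus strand): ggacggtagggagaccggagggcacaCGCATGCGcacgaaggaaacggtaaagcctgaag
ATP5C1, NRF1, chr10:7788117-7788176 (plus strand): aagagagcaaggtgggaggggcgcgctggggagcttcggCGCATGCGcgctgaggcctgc
ATP5G2, NRF1, chr12:53676091-53676150 (minus strand): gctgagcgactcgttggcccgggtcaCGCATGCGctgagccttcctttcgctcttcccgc
SDHD, ETS, chr11:112086769-112086828 (plus strand): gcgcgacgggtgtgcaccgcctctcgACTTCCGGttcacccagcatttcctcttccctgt
UQCRH, ETS, chr1:46303625-46303684 (plus strand): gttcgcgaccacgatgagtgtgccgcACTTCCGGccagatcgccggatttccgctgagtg
COX5B, ETS, chr2:97645999-97646058 (plus strand): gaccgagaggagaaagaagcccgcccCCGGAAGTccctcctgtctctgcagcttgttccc
ATP5A1, ETS, chr18:46098312-46098371 (minus strand): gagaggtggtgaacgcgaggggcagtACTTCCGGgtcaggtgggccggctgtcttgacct

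Subunit mRNAs were abundant as a group. The median member had a mean normalized value of 4139.7, where the median of all listed symbols was 99.7, and 75 of the 85 members (88.2%) reached 1000, where 25.9% of all symbols did. To compare genes with each other, each mean value was divided by the gene's length, the median over its protein-coding transcripts, and the quotients of all genes with a length were scaled to sum to 1000000, giving a level per length in ppm (parts of that sum). On this scale the median member stood at 222, where the median of the 14049 nuclear genes with a mean value of at least 10 was 12.18, and the members' median percentile among those genes was 94.9. Of the 85 members, 58 lay in the top 10% and 79 above the 50th percentile. On undivided values the members' median percentile was 88.8, short of the top 10%. The members held 1.35% of the sum of the deposited values and, being short (median length 670.5 bases, against 1946 bases for the genes they were ranked among), 2.45% of the sum per length.

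Median levels per length were 151 ppm for complex I, 168 for complex II, 246 for complex III, 349 for complex IV and 380.3 for complex V. The order of complexes I and II turned when lengths were taken from the longest, canonical or coding sequence, while complexes III to V stayed above both under each of these lengths, for complex III over complex I by as little as 229 against 223. Levels with canonical transcripts are on a scale that is 1.46-fold higher at equal length, since the sum over all genes differs. Within a complex the levels were far from equal: 45 of the 85 members lay within 2-fold of their complex's median. Among members with a mean value of at least 10, the SD of the log2 level per length was 1.38 in complex I, 0.43 in complex II, 1.14 in complex III, 0.95 in complex IV and 2.61 in complex V. The last rests on ATP5L2 and ATP5S, the second no subunit, and was 1.39 without them. These SDs describe the spread among genes, not among samples. If the deposited values had already been divided by length, the undivided scale would apply, on which the medians of these members were 3731, 4769, 5670, 6276 and 8595 for complexes I to V.

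**Figure D1:**
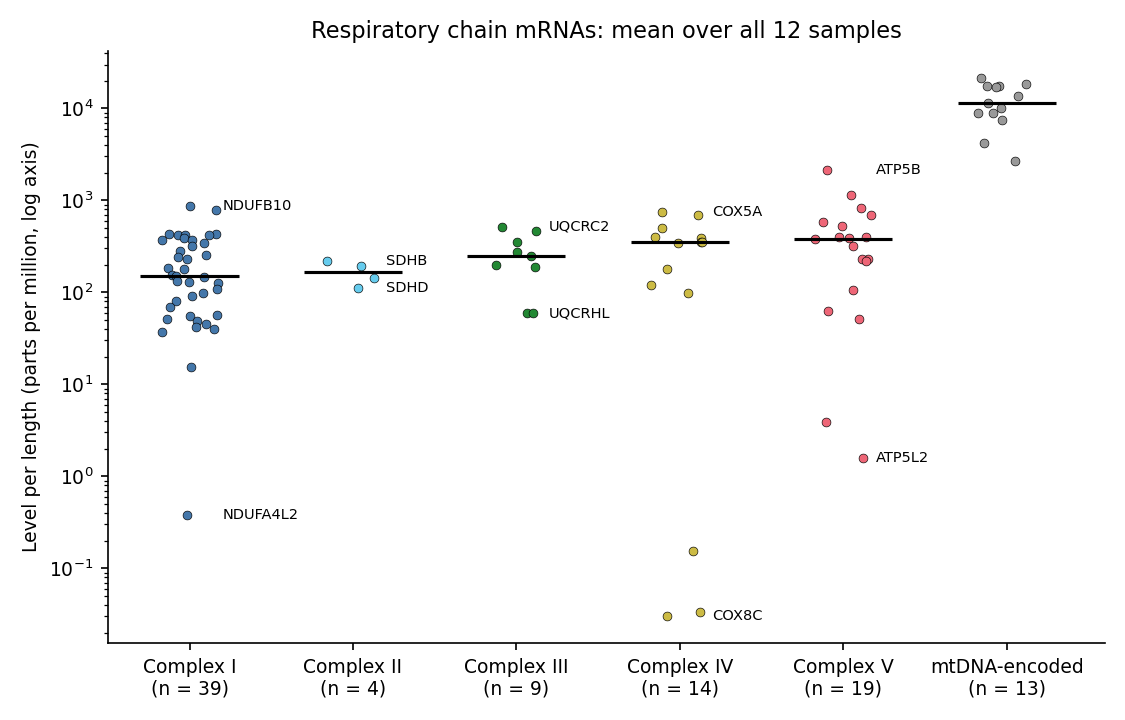
Each point is 1 gene, plotted by its level per length (ppm, log axis; authors' mean over all 12 samples) in the 5 complexes and in the 13 subunits encoded by mitochondrial DNA, with bars at the medians. The 5 nuclear medians sit between 151 and 380.3, a few members fall under 1, and all 13 mitochondrially encoded genes lie above the highest nuclear member, ATP5B.

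Complex I, the NADH dehydrogenase, carries its redox centers on 7 nuclear-encoded core subunits. Their levels per length ran from 790.2 ppm for NDUFS8, which holds a pair of iron-sulfur clusters, to 49.3 for NDUFV2 of the NADH-oxidizing module. Among those between them were NDUFV1 (430), which binds FMN and NADH, NDUFS3 (253), NDUFS7 (92.0) and NDUFS1 (55.1). With canonical transcripts NDUFS1 was the lower of these at 16.4, against 72.7 for NDUFV2. NDUFV1 stood 8.72-fold above its partner NDUFV2, and 3.88-fold with canonical transcripts. The median was 92.0 for the 7 core subunits and 166 for the 30 accessory subunits with a mean value of at least 10. With the length of each gene's canonical transcript, the corresponding medians were 187 and 239.6. The core did not stand lower on the undivided values. There its middle member, NDUFS3, had 3931, above the median of 3731 for all complex I members with a mean value of at least 10.

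The highest members of complex I were NDUFB10 (858 ppm), an accessory subunit of the membrane arm, NDUFS8 and NDUFV1. NDUFB11 was level with NDUFV1 at 430, and with canonical transcripts NDUFV1 was at 282, below NDUFB11 at 627. The lowest was NDUFA4L2 (0.38, from a mean value of 9.94), the hypoxia-inducible relative of NDUFA4, followed by NDUFA5 (15.3) of the ubiquinone-binding module and NDUFV3 (37.1), next to NDUFV1 in the enzyme. NDUFA5 and NDUFV3 are assigned long transcripts (median lengths of 3512 and 5201 bases), and their mean values before division were 1493 and 5349, the second above the complex I median of 3731. NDUFA4, named for complex I but now counted as a subunit of complex IV, stood at 70.2. NDUFAB1, the acyl carrier protein of complex I, whose symbol the rule does not match, was at 229.9.

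Complex II, which joins the citric acid cycle to the chain by oxidizing succinate, had the narrowest spread per length. SDHB, the iron-sulfur subunit, was at 217 ppm, SDHC and SDHD, the anchors that bind ubiquinone, at 192 and 112, and SDHA, the flavoprotein with the succinate site, at 144. All 4 lay within 2-fold of each other on this scale. The narrowness depended on the length used: the SD of the log2 level was 0.84 with canonical transcripts, still the lowest of the 5 complexes, and 0.89 on the undivided values, above the 0.75 and 0.74 of complexes III and IV. SDHA, SDHC and SDHD also have many sequence copies elsewhere in the genome, with values given further on.

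In complex III, the cytochrome bc1 complex, UQCRC2 (514 ppm), UQCRB (465) and UQCR10 (349) were highest. UQCRFS1, the Rieske iron-sulfur protein and the only catalytic member that the name rule takes in, was at 59.5. With UQCRH (189) and UQCRHL (59.2), it was among the lowest 3. CYC1, the cytochrome c1 subunit that the rule leaves out, was at 525. UQCRC2's 514 rests on a median transcript length of 586 bases. With its canonical transcript of 1914 bases it was at 229, below UQCRC1 at 289. Canonical lengths also turned the ranks of UQCRB, which took the lowest place at 51.7, and of UQCRHL, which took the second highest at 383, below UQCR10 at 416.

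In complex IV, cytochrome c oxidase, COX5A (742 ppm), COX6B1 (697) and COX8A (504) led the 11 members above a mean value of 10, and COX7C (178), COX6C (120) and COX7A2L (98.3), a supercomplex factor, were the lowest of these. COX4I1, the largest nuclear subunit, was at 393 and COX5B at 402. With canonical transcripts COX6B1 (1015) and COX8A (734) led, and COX5A at 530 was below COX5B at 586. COX7B, at 351 with median lengths, was then at 135, below COX6C at 149. The other members, COX6B2, COX7A1 and COX8C, were near 0. Cytochrome c itself (CYCS) was at 183.

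Complex V, the ATP synthase, held the member with the highest mean value and level per length. ATP5B, the catalytic beta subunit, had a mean value of 50464, 10.2% of the members' sum, and a level of 2126 ppm per length. On this scale 28 nuclear genes were above it. With canonical transcripts 47 were, and ATP5G2 (1839 ppm) took the top rank from ATP5B (1507 ppm). ATP5B lies on chromosome 12 at 56638175 to 56645984 on the minus strand (GENCODE 44, GRCh38). ATP5A1, the alpha subunit with which the beta subunit alternates in equal number, was at 689, so that ATP5B was 3.09-fold higher per length and 2.90-fold higher before division. With canonical transcripts the ratio was 9.51, since the transcript taken for ATP5A1 is 5761 bases long. ATP5C1, the gamma subunit of the central shaft, was at 390.4, and its partners ATP5D (delta) and ATP5E (epsilon) at 232 and 63.0. ATP5E is assigned a median length of 1878 bases. With coding length the order of ATP5D and ATP5E turned, to 195 and 487, and their undivided values were 4314 and 3280.

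Of the peripheral stalk and membrane subunits of complex V, ATP5J2 (subunit f) was at 1138 ppm, ATP5J (coupling factor 6) at 587, ATP5O at 529, ATP5I at 401, ATP5L (subunit g) at 380.3, ATP5H at 228 and ATP5F1 (subunit b) at 222. USMG5, C14orf2 and ATPIF1, complex V proteins whose symbols the rule does not match, were at 53.8, 157 and 462. The lowest names in complex V were ATP5L2 (1.60), an intronless relative of ATP5L, ATP5S (3.90) and ATP5J2-PTCD1 (52.0), a readthrough of ATP5J2 into the next gene. How its reads were told from those of the genes it joins is not stated, so its value is uncertain.

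Several subunits have a second isoform used in other tissues, and 9 of 12 pairs or near copies fixed for comparison had both genes listed. COX6B1 was at 697 ppm and its testis isoform COX6B2 at 0.16. COX7A2 was at 356 and the heart and muscle isoform COX7A1 at 0.034. COX8A was at 504 and COX8C at 0.030. The log2 ratios of these 3 pairs were 12.13, 13.37 and 14.03. They rest on nearly no signal in the second gene, since the values summed over the 12 samples come to 81.0 for COX6B2, 3.82 for COX7A1 and 5.44 for COX8C. NDUFA4 over NDUFA4L2 had a log2 ratio of 7.53 and ATP5L over ATP5L2 of 7.90. The genes COX4I2, COX6A2 and COX7B2 were not among the listed symbols.

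The 3 genes of subunit c, which forms the rotor ring, encode the same mature protein behind different import sequences and all were well above 0. ATP5G2 was at 836 ppm, ATP5G3 at 397 and ATP5G1 at 318. ATP5G2 was the highest of the 3 also under the longest, canonical and coding lengths. ATP5G3 over ATP5G1 had a log2 ratio of 0.32 and turned to -0.94 with the longest or canonical transcript, so these 2 cannot be ordered. No 50-base window is shared between the canonical transcripts within these 3 pairs.

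UQCRH and UQCRHL, which encode the hinge protein of complex III, differ in this respect. Both are on chromosome 1, UQCRH at 46303698 to 46316776 on the plus strand and UQCRHL at 15807169 to 15809348 on the minus strand, and UQCRHL is an intronless copy. Their mean values were 2813 and 2015, and the log2 ratio per length was 1.67. Of the 50-base windows of the canonical UQCRHL transcript, 53.7% also occur in the UQCRH transcript, and the log2 ratio changed to -0.48 with canonical lengths. How the authors' counting divided such reads is not stated, so the 2 values are uncertain.

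**Figure D2:**
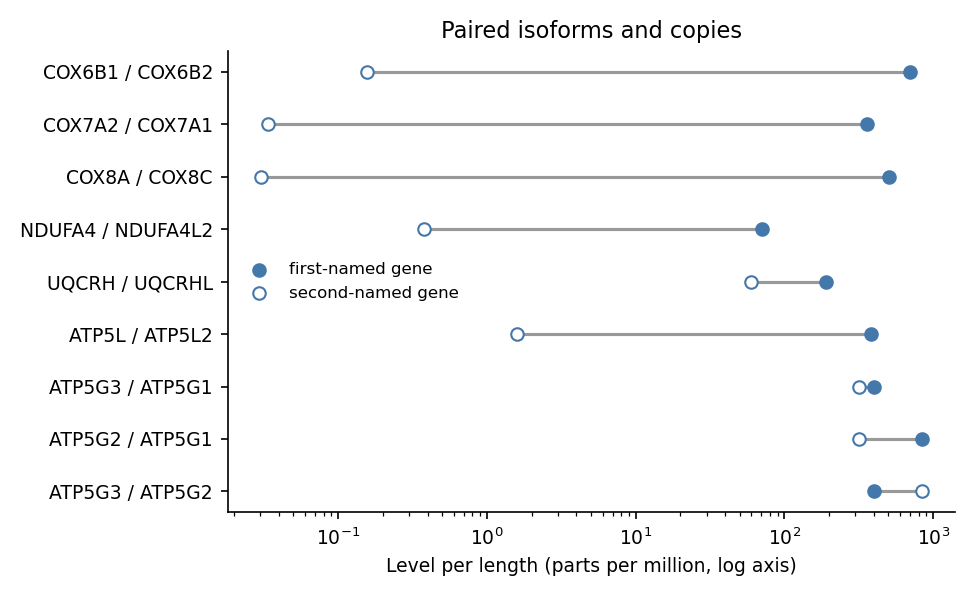
The 9 pairs of isoforms or copies are plotted by level per length (ppm, log axis), with the first-named gene filled and the second open. COX6B1, COX7A2, COX8A, NDUFA4 and ATP5L lie far above their partners, with log2 ratios of 7.53 to 14.03, while the UQCRH pair lies 3.19-fold apart and the ATP5G genes 1.25-fold to 2.63-fold.

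Sequence copies are a wider matter for these genes. GENCODE 44 names 187 pseudogenes after 48 of the members, led by COX6C with 17 and NDUFB4 and NDUFA5 with 12 each. No listed symbol of complexes I, III, IV or V ended in P and digits. That search could not match pseudogenes of complex II or names ending in P alone, so whether those are listed was not tested. To see how far short reads could be misplaced, every 50-base window of each canonical transcript was looked up on both strands of the GRCh38 genome outside the gene itself. 38 of the 85 members had no window elsewhere, and 16 had 10% or more. SDHC had 61.1%, COX6A1 59.8% and SDHD 50.3%. UQCRH followed with 33.4%, NDUFV2 with 30.9%, UQCRFS1 with 22.8% and SDHA with 21.3%. A count of named pseudogenes did not give this share, since COX6C, with 17 of them, had 2.59%. Levels of the members with many shared windows carry this uncertainty. The search missed windows that cross a splice junction of another gene or lie in an overlapping gene, so shares can be too low. UQCRHL had 21.1% by this search, where 53.7% of its windows occur in the UQCRH transcript.

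**Figure D3:**
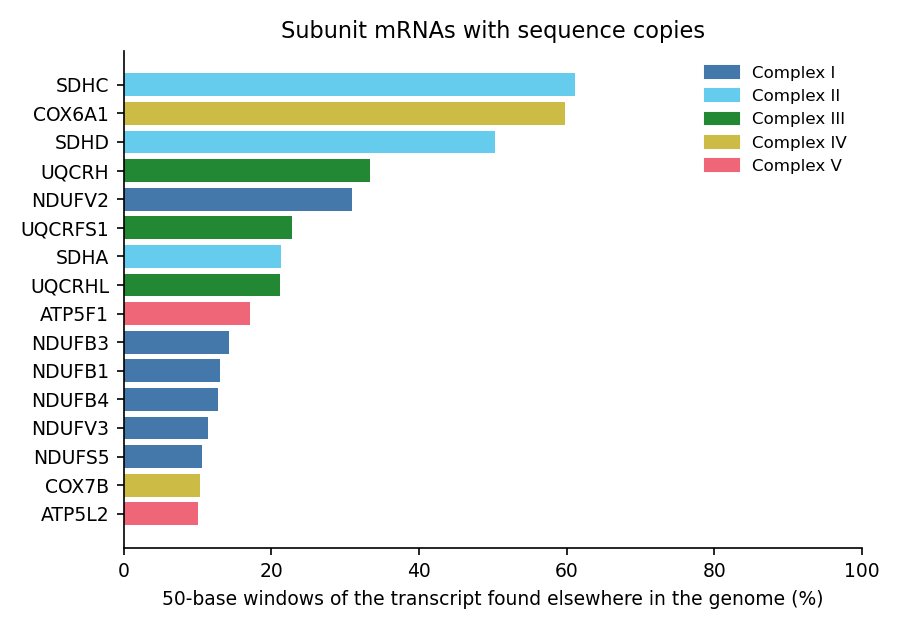
Bars give the share of the 50-base windows of each canonical transcript that also occur elsewhere in the GRCh38 genome (%), for the 16 members at 10% or more, colored by complex. SDHC, COX6A1 and SDHD stand above 50%, and the other 13 lie between 10 and 33.4%.

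The 13 subunits encoded by mitochondrial DNA were all listed, and together they held 10.0% of the sum of the deposited values, where the 85 nuclear members held 1.35%. Their levels per length ran from 2651 ppm for ND6, the one gene on the light strand, to 21575 for COX2, and none of the nuclear members reached the lowest of them. In complex I the median of the 7 mitochondrially encoded subunits was 9014, which is 59.6-fold over the nuclear median, and in complex IV the median of COX1, COX2 and COX3 was 18216, or 52.2-fold over it. CYTB of complex III was 30.3-fold and the median of ATP6 and ATP8 of complex V 40.3-fold over the nuclear medians. With canonical transcripts the 4 ratios were 58.9 (I), 69.3 (IV), 47.3 (III) and 70.4 (V), so their order depends on the length. The sums of the undivided values stood in ratios of 8.84 (I), 22.7 (IV), 4.51 (III) and 2.14 (V). These ratios compare RNAs made by separate polymerases, and the libraries, which the labels call poly(A)-selected and the methods whole transcriptome, were not tested for how they recover the 2 kinds. ATP8 and ATP6, and likewise ND4L and ND4, are read from 1 shared RNA each. Their mean values stood in ratios of 0.243 and 0.170, near the ratios of their lengths of 0.304 and 0.216, as values that were not divided by length would. Over nuclear genes the values showed almost no rank correlation with length, so the scale of the deposited values is not settled.

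Beside the subunits, lists of related genes were described on the same scale. The 46 listed assembly factors, which build the complexes without staying in them, had a median of 26.1 ppm and a median percentile of 65.3, from 2.11 for COX19 to 326 for NDUFAF3. By complex their medians were 32.6 (I), 11.4 (II), 94.0 (III), 14.2 (IV) and 56.4 (V), each below that of the subunits of the same complex. The 12 enzymes of the citric acid cycle had a median of 123, led by MDH2 (malate dehydrogenase) at 767 and CS (citrate synthase) at 254. Of 8 transcriptional regulators of mitochondrial genes in either genome, TFAM, which acts in the transcription and packaging of mitochondrial DNA, was at 163, YY1 at 132 and PPRC1 at 77.9. NRF1 was at 9.76, ESRRA at 8.58, PPARGC1B at 7.48, GABPA at 4.43 and PPARGC1A at 0.97, the lowest of the list.

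**Figure D4:**
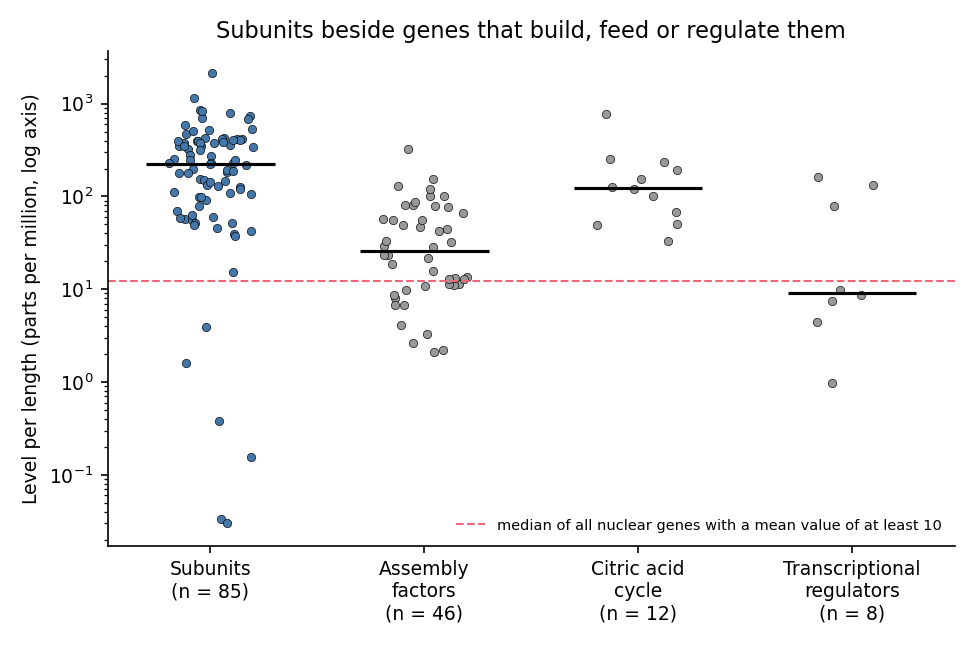
Points give the level per length (ppm, log axis) of the 85 subunit genes, 46 assembly factors, 12 citric acid cycle enzymes and 8 regulators, with bars at the medians of 222, 26.1, 123 and 9.17. The dashed line is the median of all nuclear genes with a mean value of at least 10, at 12.18.

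In the genome the members were spread over 22 chromosomes. Chromosome 19 held the most, with 13 members or 15.3%, where 6.97% of the nuclear genes with a mean value of at least 10 lie there. Among the 81 members with a mean value of at least 10, the share was 13.6% (11 members). On chromosome 19 are NDUFB7, NDUFA3, NDUFA7, NDUFA11, NDUFA13 and NDUFS7 of complex I, UQCR11 and UQCRFS1 of complex III, COX6B1, COX6B2 and COX7A1 of complex IV, and ATP5D and ATP5SL.

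Promoter windows of 300 bases, 250 before to 50 after a RefSeq start (GRCh38.p14), were found for 67 of the 85 members. Exact matches on either strand were counted per gene, over 1 or more windows. CGCATGCG (NRF1) was found in 11 members (16.4%), where 2.46% of all 27305 genes with a window and 4.41% of the listed genes with a mean value of at least 10 had it. CCGGAAGT (ETS) was found in 11 members (16.4%), against 4.95% and 9.40%, and AAGATGGC (YY1) in 12 members (17.9%), against 3.52% and 6.06%. The letters CCAATC of the CCAAT box bound by NF-Y were in 13 members (19.4%), between the 17.9% and 23.4% of the same 2 backgrounds. None of the 4 motifs contains another. Any of the first 3 was in 30 of the 67 members (44.8%), against 10.1% and 18.2%.

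The 11 members with the NRF1 letters came from complexes I, II, IV and V: NDUFA5, NDUFA8, NDUFB4, NDUFS6, NDUFS7, SDHD, COX6A1, ATP5C1, ATP5G2, ATP5I and ATP5J. The ETS letters were in ATP5A1, ATP5H, ATP5J, COX5B, COX8A, NDUFA13, NDUFS1, SDHD, UQCR11, UQCRH and UQCRQ. ATP5J, NDUFS7 and SDHD had 2 or more of the first 3 motifs, and in SDHD the NRF1 letters began 109 bases and the ETS letters 78 bases before the start, as in the pair of SDHD stretches shown above. The YY1 letters lay elsewhere: 11 of their 13 matches in members (84.6%) began at 10 bases before the start or later, with a median position 17 bases after it, where 53.6% of the matches in all windows did so. The other 2 are 1 site of ATP5J seen in both of its overlapping windows. The bound of 10 bases was set after the positions were seen. For NRF1 and ETS the median positions in members were 77 and 48 bases before the start. A match is a run of letters and not a bound site.

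**Figure D5:**
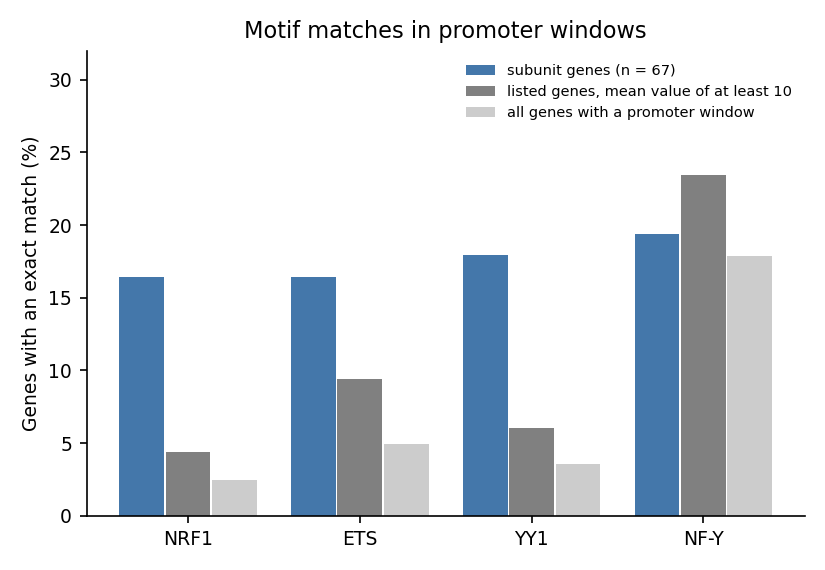
Bars give the share of genes (%) with an exact match to each of 4 motifs in their promoter windows, for 67 subunit genes, for listed genes with a mean value of at least 10 and for all genes with a window. Subunit genes stand at 16.4 to 17.9% for NRF1, ETS and YY1, above both backgrounds, and between them for the motif of NF-Y at 19.4%.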

How the data were processed

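RNA of 12 samples was sequenced on the DNBSEQ platform, and the methods give paired-end reads of 50 bases. The authors aligned reads with DNAstar SeqManPro to GRCh38.p7, quantified genes with ArrayStar and QSeq, and fitted DESeq2 (version 1.40.1 in the submitters' processing notes, which list GRCh38 and GRCh37). Each of 3 deposited tables gives, for 23292 symbols, a signal value that is the authors' mean over all samples of values scaled by DESeq2; it is the same in the 3 tables. The methods name RPKM as the fit's input, whereas the values sum to 36.6 M. Whether they had been divided by length is not settled here: 2 pairs of overlapping mitochondrial genes stood near the ratio of their lengths, but over 14049 nuclear genes with a mean value of at least 10 the values showed almost no rank correlation with length (Spearman's rho 0.0053, genes not being independent). The other deposited columns hold the authors' log2 fold changes over vehicle, their standard errors, statistics and p-values, and were not used or printed. In all of them, 23 symbols had become dates or numbers and were not used by name. No value per sample was analysed here, so no test was made, and the values do not show the depth reached in each sample.

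Levels were divided by length from GENCODE 44 (mitochondrial genes from RefSeq) and scaled to sum to 1000000 over the 17951 genes with a length. Of the 85 members, 66 matched by symbol and 19 through an older symbol in RefSeq. Promoter windows were RefSeq's (GRCh38.p14). Scripts (Python 3.11.15, pandas 2.3.3 and numpy 2.4.6) were tested on simulated data. The search for 50-base windows elsewhere and the counts by chromosome and motif position were added after seeing the data. By the rule for named genes, every matching symbol could be named, and the 3 highest and 3 lowest of each complex, the paired genes, the catalytic core and the fixed lists were to be given in full. Of the fixed lists some genes are named and the rest summarized, and 1 member's own values are not reported here. The members and lists were chosen with earlier results of these data known.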

Additional observations from a re-analysis of the deposited data

How the results depend on the processing

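All values are means over 12 samples, so no alternative could be set against an error, and a value counts as moved when its first 3 digits changed. The members held 1.53% of the sum without mitochondrial DNA genes, 1.32% without the readthroughs and the genes that are no subunits, and 2.45% per length. Their median percentile was 96.0 among all 17938 nuclear genes with a length and 88.8 on undivided values. Under a mean value of 1 there were 2 members, not 4.

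Levels depended on which transcript gives a gene its length. The canonical transcript was added after seeing the data, its length differed over 1.5-fold from the median length in 28 of 85 members, and levels at equal length are 1.46-fold those of the median length. For the longest transcript this factor is 1.60 and for coding length 0.63, so medians compare within a length only. For complexes I to V in order, the medians were 185, 147, 252, 226 and 250 with the longest transcript, 218, 152, 360, 376 and 370 with coding length, and 223, 134, 229, 383 and 317 with canonical transcripts. Complexes I, IV and V had 152, 351 and 394 without readthroughs and genes that are no subunits, and complexes I and IV had 152 and 356 at a mean value of at least 10. NDUFA4 stayed in complex I throughout. The SDs of the log2 level were 1.04, 0.89, 0.75, 0.74 and 2.33 on undivided values and 1.72, 0.84, 1.01, 1.14 and 2.57 with canonical transcripts. Without ATP5L2 and ATP5S, an alternative also chosen after seeing the data, that of complex V was 1.39.

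Log2 ratios with the longest, coding and canonical lengths were 2.50, 0.48 and -0.48 for UQCRH over UQCRHL, -0.94, 0.80 and -0.94 for ATP5G3 over ATP5G1, 0.72, 2.06 and 2.35 for ATP5G2 over ATP5G1, -1.66, -1.26 and -3.29 for ATP5G3 over ATP5G2, and 6.34, 8.73 and 7.84 for ATP5L over ATP5L2. With the longest and coding lengths they were 11.86 and 10.48 for COX6B1 over COX6B2, 12.64 and 13.22 for COX7A2 over COX7A1, and 7.86 and 8.74 for NDUFA4 over NDUFA4L2. The signs that turned follow from the lengths, since the values divided are the same.

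Among members with a mean value of at least 10, NRF1 and ETS letters were each in 17.2% and YY1 and CCAAT letters each in 18.8%. With 1 mismatch allowed the shares were 44.8% for NRF1, 43.3% for ETS, 52.2% for YY1 and 86.6% for CCAAT, where all genes had 15.7%, 28.5%, 25.3% and 89.3%. No paired analysis was possible because the values carry no replicate.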
